A study of Mus musculus with 22 samples.

Results

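The LPS response of pancreatic dendritic cells (DCs) of the NOD mouse, a strain that develops autoimmune diabetes, was measured in 8 of the 22 arrays of the series, as the difference between 4 samples kept in culture with lipopolysaccharide (LPS, a component of the wall of Gram-negative bacteria) and 4 samples kept with PBS, the vehicle. All samples were CD11c+CD8α- DCs, the larger DC subset of the pancreas, from female mice of 5 weeks of age. The series' design gives 10 pooled pancreases for the sorted DCs and does not repeat that number for the cultured samples. For PCR and cytokine measurements on such cultures, the study's legends give 10 pooled mice per sample. Pancreases were digested with enzymes, CD45+ cells were enriched on magnetic beads and CD11c+CD8α- cells were sorted by flow cytometry. The NOD PBS group and the NOD LPS group therefore shared strain, sex, age, sort and 18 h of culture, and differed in the addition of LPS. C57BL/6, a strain that does not develop diabetes, was treated in the same way, with 4 PBS and 3 LPS samples, and was used here to test where the NOD response differed. RNA was amplified and hybridised to Affymetrix Mouse Genome 430 2.0 arrays, and values are log2 expression after RMA (robust multi-array average), so that a difference of 1 is a 2-fold change. A sample is a pool of sorted cells, so fewer cells of a type and less RNA per cell cannot be told apart.

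LPS is recognised by Toll-like receptor TLR4 together with MD-2 (Ly96), and CD14 delivers LPS to this complex. From TLR4, the adaptor MyD88 leads through IRAK and TRAF6 to NF-kB and the MAP kinases, which drive genes of inflammatory cytokines, while the adaptor TRIF (Ticam1) leads through TBK1 to IRF3 and type I interferon. DCs that have sensed LPS mature: they carry more costimulatory molecules and peptide-loaded MHC, take up less material, move towards lymph nodes through CCR7 and release cytokines that shape T cell responses.

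The 8 NOD arrays were alike in distribution, with medians of 7.63 to 7.68 and lower quartiles of 6.28 to 6.36, and pairwise correlations within a group of 0.986 to 0.991. On the first principal component, which held 30.8% of the variance, the 4 LPS samples (8.58 to 39.66) and the 4 PBS samples (-46.42 to -6.33) did not overlap. Among DC genes, Flt3 (a DC growth factor receptor), Zbtb46 (a transcription factor of classical DCs) and Irf4 had mean PBS levels of 9.10, 9.72 and 10.83, above every array median. Of 14 markers of DCs and CD8α- DCs 11 were above every array median in PBS, as were 18 of 19 macrophage markers, 9 of 9 plasmacytoid DC markers, 9 of 14 NK cell markers, 6 of 9 B cell markers and 13 of 18 markers of pancreatic acinar, duct and islet cells. Transcripts of the labelled cell type thus lay above the array medians, and so did transcripts known from other cells. The share of all genes above the medians is not given here, so these counts do not show which cell types were present. The part of such cells in the differences described here was not tested, and the markers' own LPS differences are given beside the results.

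In total, 1693 of 45037 probe sets differed between LPS and PBS (limma, adjusted p under 0.1), of which 758 were higher (1.68%) and 935 lower (2.08%) with LPS, and 5799 had an unadjusted p under 0.05. Changes were asymmetric in size: 28 called probe sets were at least 4-fold higher and 3 at least 4-fold lower. For genes, each given by its brightest probe set, 352 of 18193 rose (1.93%) and 448 fell (2.46%), and in 758 of these 800 genes the LPS and PBS values did not overlap. Genes chosen by the test are bound to overlap little, and over all 18193 genes 1703 (9.36%) had groups that did not overlap. The median difference over all genes was 0.00. The replicate numbers of the labels paired LPS and PBS samples, and with the number as a block 813 genes were called higher (4.47%) and 1080 lower (5.94%), among them 799 of the 800. Calls also moved with single libraries: the count of 1693 probe sets became 911 without PBS replicate 4, 1078 without LPS replicate 2 and 1115 without LPS replicate 4. PBS replicate 3 held the highest of the 4 PBS values in 212 of the 352 genes that rose (60.2%, against 21.3% over all genes), and without it 1672 probe sets were called. Of the 137 called genes named below, 98 passed the threshold with each of the 8 libraries left out in turn; the other 39 lost the call without at least 1 library, with an adjusted p of at most 0.255, and are named as such where they are described. With 1 library left out, the genes called higher ranged from 9 to 11 for inflammatory cytokines, from 6 to 7 for the IL-1 family, from 3 to 7 for NF-kB regulators, from 3 to 7 for matrix proteases and inhibitors and from 2 to 6 for STAT factors and SOCS inhibitors. Those called lower ranged from 2 to 5 for complement and from 5 to 7 for macrophage markers.

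Among the 10 largest rises, U90926 rose most. Its PBS values were 8.86, 9.16, 10.89 and 8.82 and its LPS values 13.51, 13.37, 13.78 and 13.86. The lowest LPS value was far above the highest PBS value, and the difference was 4.20 (SE 0.378, 18.3-fold, adjusted p = 0.000789 by limma). Csf2 followed, the gene of the growth factor GM-CSF, which acts on DCs, macrophages and granulocytes. PBS samples measured 8.21, 8.69, 10.08 and 7.99, and LPS samples 11.60, 11.78, 12.71 and 12.06. Replicate 3 was highest in both groups, and the groups were well apart (3.29, SE 0.394, 9.79-fold, adjusted p = 0.00223). Hamp, the gene of hepcidin, the peptide that closes the iron exporter, measured 7.24, 8.67, 8.48 and 7.46 in PBS and 10.80, 10.99, 11.54 and 10.73 in LPS (3.05, SE 0.306, 8.28-fold, adjusted p = 0.000922). Next came Mmp3, the matrix protease stromelysin (2.86, 7.24-fold), Cxcl5, a neutrophil chemoattractant (2.77, 6.81-fold), Il1f6, now named Il36a, an IL-1 family cytokine (2.70, 6.51-fold), F3, tissue factor, the starter of coagulation (2.68, 6.42-fold), Serpinb2, an inhibitor of plasminogen activators (2.45, 5.47-fold), Csf3, the granulocyte growth factor G-CSF (2.33, 5.02-fold), and Ikzf4, an Ikaros family transcription factor (2.27, 4.82-fold). All 10 were called with each library left out.

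Among the 10 largest falls, Atp6v0d2, a subunit of the proton pump that acidifies lysosomes, fell most. It measured 8.96, 8.23, 7.27 and 9.21 in PBS and 7.0, 6.19, 5.96 and 6.69 in LPS. The groups did not overlap, although PBS replicate 3 came within 0.27 of LPS replicate 1, and the difference was -1.96 (SE 0.372, 3.89-fold lower, adjusted p = 0.0199). Lpl, lipoprotein lipase, which frees fatty acids from lipoproteins, fell by 1.59 from values of 11.07, 10.01, 9.93 and 11.07 to 8.76, 9.05, 8.71 and 9.18. Cebpa, a transcription factor of the myeloid lineage, fell by 1.58, from 11.01, 9.75, 9.86 and 10.57 to 8.89, 8.48, 8.57 and 8.92 (adjusted p = 0.00815). In both genes PBS replicates 1 and 4 lay above PBS replicates 2 and 3, and all LPS values lay below all PBS values. Hmga2, a chromatin architectural protein, had narrow groups, at 11.25, 11.25, 11.33 and 11.38 in PBS and 9.60, 9.67, 10.06 and 9.59 in LPS (-1.57, SE 0.123, adjusted p = 0.000601). The remainder were Sectm1a (-1.83), Ndrg4 (-1.71), Fam102a (-1.53), Rcbtb2 (-1.52), Lair1, an inhibitory receptor for collagen (-1.52), and Tns1, a tensin of focal adhesions (-1.50). Probe sets of a gene did not always agree. Those called lower were 1 of 2 for Atp6v0d2 (smallest difference -0.84), 3 of 4 for Hmga2 (-0.16) and 3 of 5 for Rcbtb2 (-0.19). For the other genes of the 10 every probe set was called lower.

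**Figure D1:**
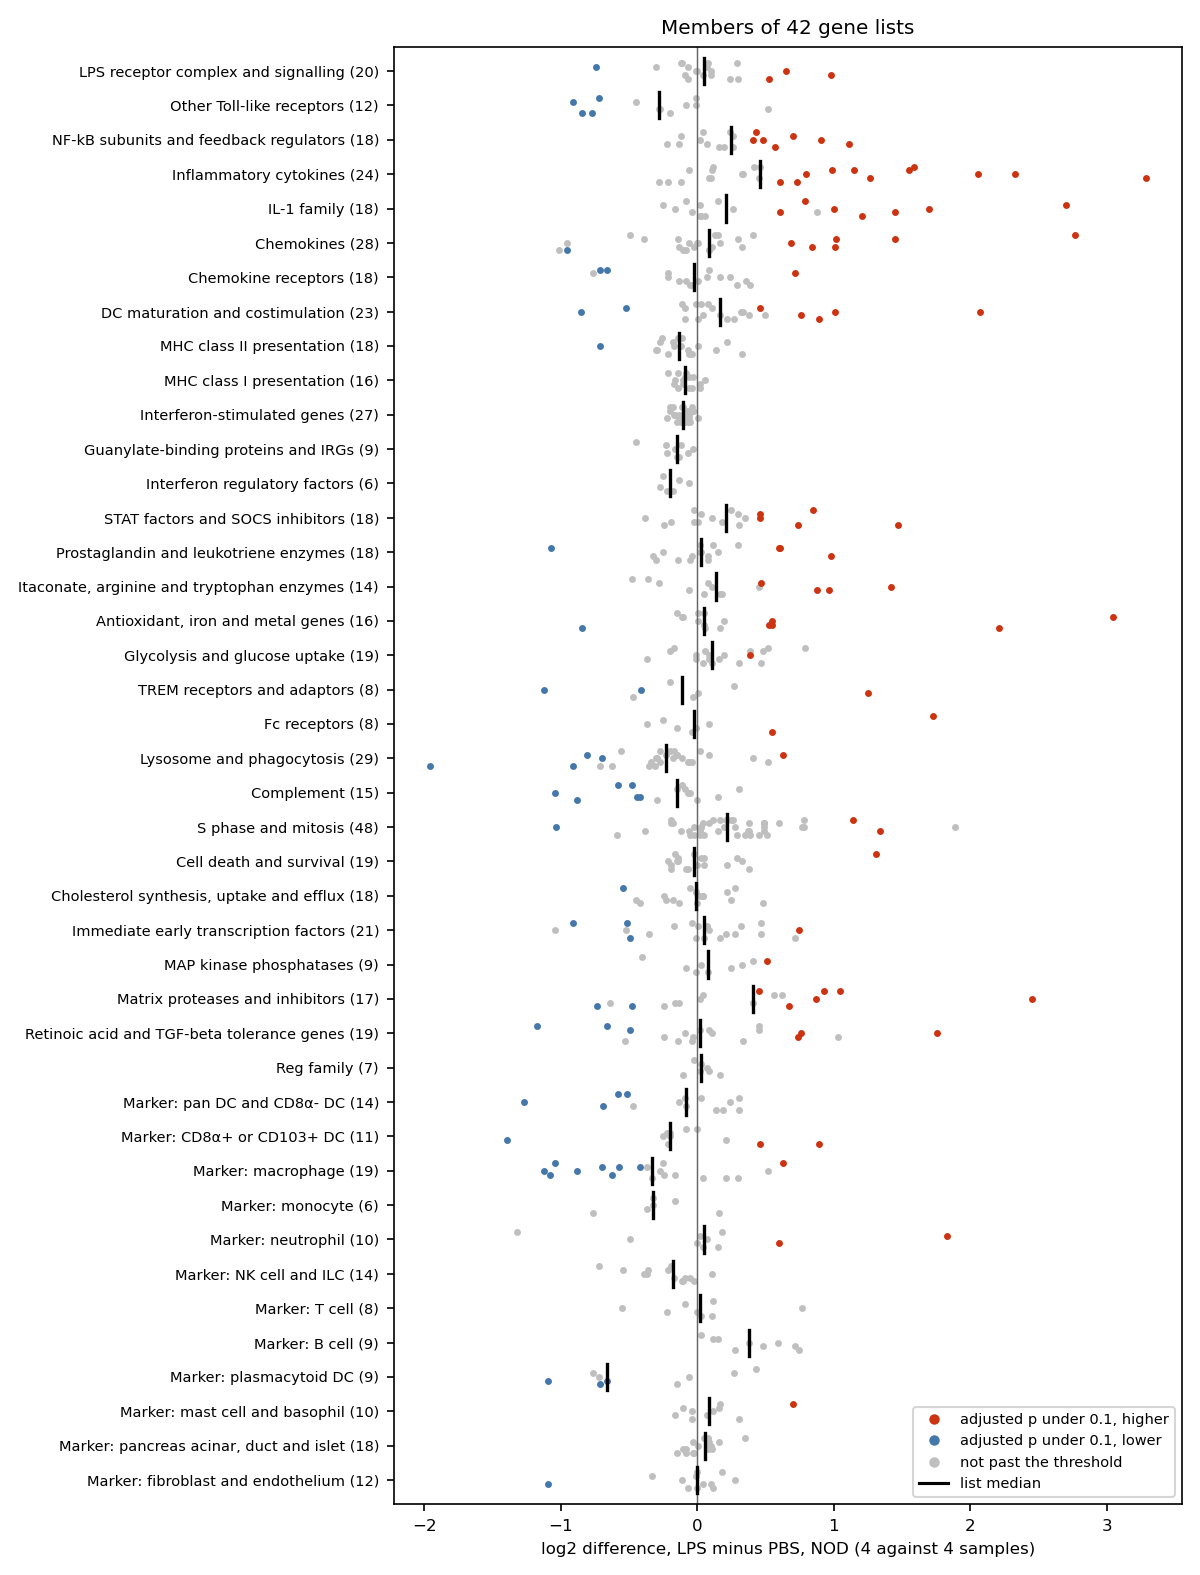
Log2 difference between LPS and PBS in NOD (x axis, 4 against 4 samples) for every measured member of 42 gene lists (y axis, number of members in brackets), with red points called higher, blue points called lower, grey points not past the threshold and a black bar at each list's median. Inflammatory cytokines reached 3.29 with 11 of 24 called higher, while all 27 interferon-stimulated genes lay between -0.22 and 0.01.

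Within the LPS receptor complex and its signalling chain, 3 of 20 genes rose and 1 fell, with a median difference of 0.05 against 0.00 over all genes. Tlr4 itself fell. PBS samples measured 11.79, 11.41, 11.08 and 11.72 and LPS samples 10.78, 10.67, 10.54 and 11.03, so that all LPS values were below the lowest PBS value by a narrow margin (-0.74, SE 0.166, adjusted p = 0.0426). The call was lost without LPS replicate 2 or 3 or PBS replicate 1 or 4 (adjusted p at most 0.134), and 3 of the 4 probe sets of Tlr4 were called lower, the other differing by 0.03. Irak3, which encodes IRAK-M, an inhibitor of TLR signalling, rose from 10.84, 11.48, 11.65 and 11.26 to 11.97, 12.12, 12.61 and 12.46 (0.98, adjusted p = 0.0217). Ikbke, a kinase of the TBK1 family, rose by 0.65 (adjusted p = 0.0114), and Map3k8, the kinase that links TLRs to the ERK pathway, by 0.53 (adjusted p = 0.0695, lost without any of 6 libraries). Cd14 differed by 0.30 (95% interval 0.08 to 0.52, adjusted p = 0.184, 0.0875 with the block). Of 12 further Toll-like receptors and their partners none rose and 4 fell, with a median of -0.28. These were Tlr13 (-0.91), Tlr9, a sensor of DNA in endosomes (-0.84), Cd180, a TLR4-related receptor (-0.77), and Tlr8 (-0.72), each with LPS values below all PBS values. Tlr7 (-0.45) and Tlr1 (0.52) did not pass and passed with the block (adjusted p = 0.0307 and 0.0586). Without PBS replicate 2 Tlr7 passed as well (adjusted p = 0.0777), and both its dimmer probe sets were called lower (-0.53 and -0.55).

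NF-kB subunits and their feedback regulators moved upward: 7 of 18 rose, none fell, and the median was 0.25. The largest rises were in genes that restrain or redirect the pathway. Zc3h12a, the RNase Regnase-1 that degrades cytokine mRNAs, went from 9.44, 9.92, 10.02 and 9.50 to 10.95, 10.70, 10.94 and 10.72 (1.11, SE 0.147, adjusted p = 0.00346). Nfkbiz, the nuclear inhibitor-like protein IkB-zeta that takes part in the transcription of Il6, went from 11.82, 12.10, 12.16 and 11.70 to 12.84, 12.93, 12.81 and 12.86 (0.91, SE 0.121, adjusted p = 0.00346). LPS and PBS values were separate in both. Tnip1, a partner of the ubiquitin-editing protein A20, rose by 0.70, Nfkbid by 0.57, Nfkb2 by 0.48, Nfkbib by 0.43 and Tnfaip3, which encodes A20, by 0.41. Of these 5 all but Tnip1 lost the call without at least 1 library (adjusted p at most 0.211).

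Inflammatory cytokines had the highest median of the 42 lists, 0.46, though the lists were written with earlier results of these data known. Of 24 genes 11 were higher (15 with the block) and none lower. Over all genes the main fit called 1.93% higher and 2.46% lower. Il6, an acute-phase cytokine, was measured at 11.20, 11.72, 12.05 and 10.84 in PBS and at 12.91, 13.01, 13.29 and 12.99 in LPS. The LPS values were tightly grouped above the PBS range (1.59, SE 0.223, 3.02-fold, adjusted p = 0.0048). In uncultured NOD DCs its mean level was 6.41, so that both culture groups were far above it. Il10, an anti-inflammatory cytokine, gave 8.68, 9.14, 9.14 and 8.30 in PBS and 10.89, 10.78, 11.16 and 10.67 in LPS (2.06, SE 0.189, 4.16-fold, adjusted p = 0.000789). Csf3 measured 10.26, 10.52, 11.69 and 9.99 in PBS and 12.92, 12.68, 13.19 and 13 in LPS, with PBS replicate 3 again highest of its group (adjusted p = 0.00275). Il12a, the p35 subunit shared by IL-12 and IL-35, gave 7.87, 7.82, 8.59 and 8.06 in PBS and 9.44, 9.77, 9.50 and 9.83 in LPS (1.55, SE 0.172, 2.93-fold, adjusted p = 0.00147). Genes of related chains differed in behaviour. Ebi3, a chain of IL-35 and IL-27, rose by 0.99 (adjusted p = 0.00895). Il12b, the p40 chain of IL-12, differed by 0.12 (95% interval -0.21 to 0.45) and Il23a by 0.34 (-0.11 to 0.79), and neither passed the test. The dimmer Il12b probe set differed by 0.65 and was not called. Tnf, the gene of the cytokine TNF-α, was already high in PBS at 11.76, 11.93, 12.25 and 11.85 and measured 12.70, 12.73, 12.95 and 12.62 in LPS (0.80, SE 0.129, 1.74-fold, adjusted p = 0.00944). Lif (1.27), Tnfsf9, the costimulatory ligand 4-1BBL (1.15), Inhba, a subunit of activin (0.73, lost without LPS replicate 2), and Osm (0.61, lost without any of 7 libraries) completed the called genes. Ifnb1, the interferon beta gene, differed by -0.28 (adjusted p = 0.396).

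**Figure D2:**
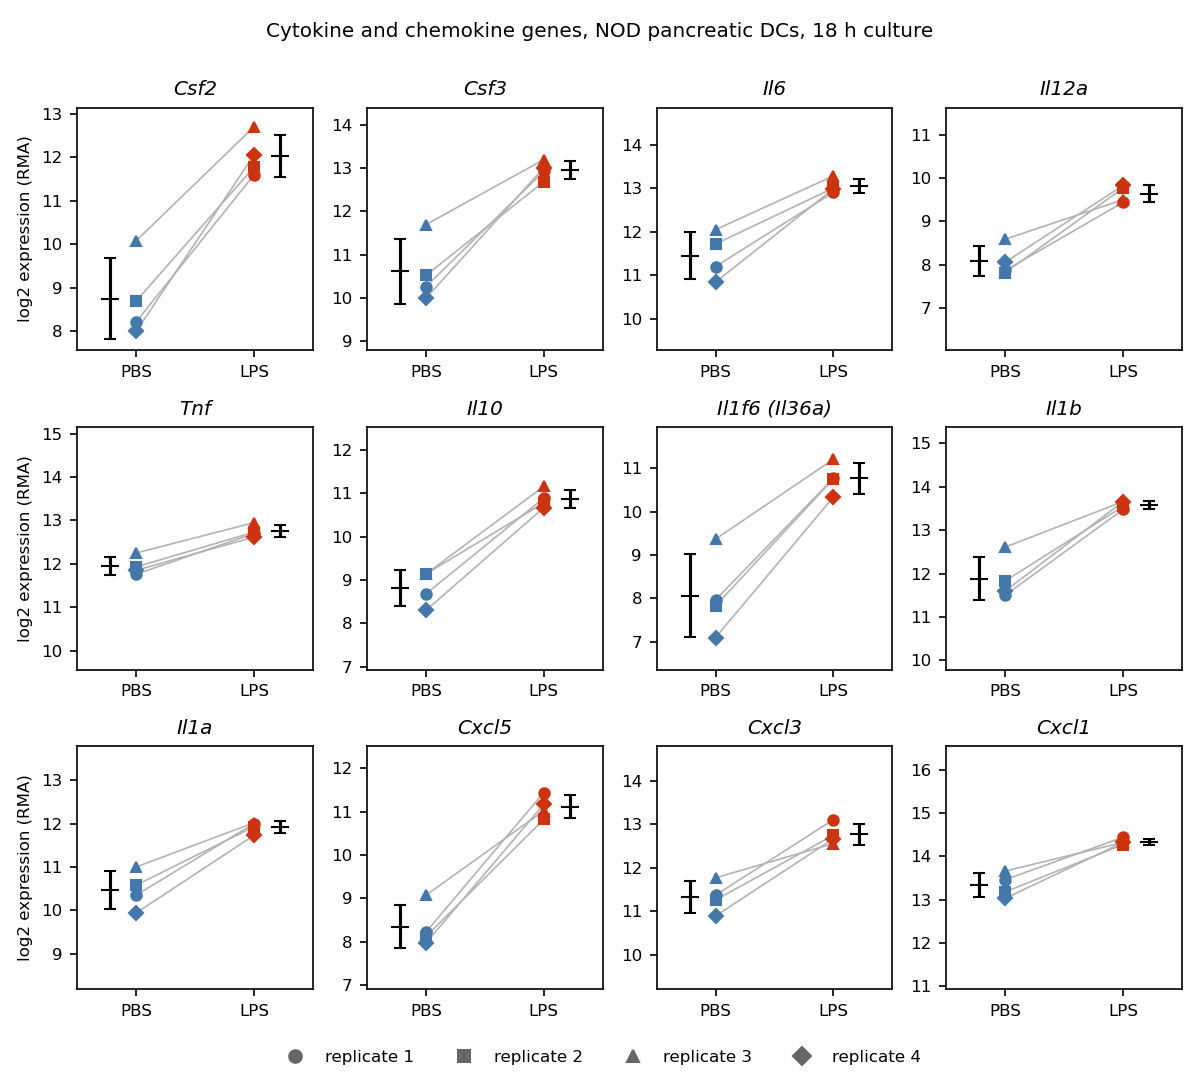
Log2 expression of 12 cytokine and chemokine genes in NOD DCs cultured for 18 h with PBS (blue) or LPS (red); symbols mark replicates 1 to 4, grey lines join samples of the same number, bars give mean and SD, and all panels span the same range of log2 units. Every LPS value lay above every PBS value of its gene. PBS replicate 3 (triangle) was the highest PBS sample in every panel except Il10, where it was level with another PBS sample.

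Of 18 genes of the IL-1 family list 7 rose and none fell, with a median of 0.21. The cytokines of the family led. Il1f6 measured 7.97, 7.83, 9.37 and 7.10 in PBS and 10.77, 10.76, 11.21 and 10.34 in LPS (2.70, SE 0.379, adjusted p = 0.0048). Il1b, the gene of IL-1β, measured 11.50, 11.83, 12.61 and 11.60 in PBS and 13.48, 13.55, 13.66 and 13.66 in LPS (1.70, SE 0.205, 3.25-fold, adjusted p = 0.00223). Il1a gave 10.35, 10.58, 11 and 9.94 in PBS and 12, 11.93, 12.02 and 11.73 in LPS (1.45, SE 0.191, adjusted p = 0.00331). In all of these the groups did not overlap, and the spread within the LPS group was smaller than within the PBS group. Il1f9 (now Il36g) rose by 1.21 with overlapping groups (adjusted p = 0.0811, lost without any of 6 libraries). Nlrp3, the sensor of the inflammasome that matures IL-1β, rose by 1.00 (adjusted p = 0.00755). Among receptors, Il1rl2, the receptor for IL-36, rose by 0.79 and Il1r1, the receptor for IL-1, by 0.61. The dimmer Il1r1 probe set differed by -0.13, and the gene did not pass as the mean of both. Il33 differed by 0.88 and did not pass (adjusted p = 0.373), but did with the block (adjusted p = 0.0227).

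Promoters of a set of called cytokines and chemokines, picked by hand, were read for the motifs of the factors named above, since these genes moved together. Promoter here means 250 bases before to 50 bases after a RefSeq start on GRCm38.p6, searched on both strands for the kappaB motif of NF-kB, for the AP-1 motif TGANTCA and for the interferon response motif ISRE. Cxcl5, Il1f6, Csf3 and Il10 were not analysed here in this respect. The sequences below are those of the other genes of this set that held a match, with the matches in capitals. Lif and Tnfsf9, which rose by more than Cxcl1, were not in the set. Il6 (chr5:30012864-30013163, plus strand) held a kappaB match starting 44 bases before its start and an AP-1 match at 249 bases before it. Cxcl1 (chr5:90890995-90891294, plus strand) and Cxcl3 (chr5:90785851-90786150, plus strand) each held kappaB matches on both strands that overlapped, beginning 71 and 73 bases before the start. Il1a (chr2:129309923-129310222, minus strand) held an AP-1 match 12 bases before its start.
Il6: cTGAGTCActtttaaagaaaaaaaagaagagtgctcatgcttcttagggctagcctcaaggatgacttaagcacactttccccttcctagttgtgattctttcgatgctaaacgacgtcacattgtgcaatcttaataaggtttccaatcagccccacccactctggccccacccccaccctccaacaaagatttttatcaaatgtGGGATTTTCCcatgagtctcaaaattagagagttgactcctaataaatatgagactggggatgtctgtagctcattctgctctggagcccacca
Cxcl1: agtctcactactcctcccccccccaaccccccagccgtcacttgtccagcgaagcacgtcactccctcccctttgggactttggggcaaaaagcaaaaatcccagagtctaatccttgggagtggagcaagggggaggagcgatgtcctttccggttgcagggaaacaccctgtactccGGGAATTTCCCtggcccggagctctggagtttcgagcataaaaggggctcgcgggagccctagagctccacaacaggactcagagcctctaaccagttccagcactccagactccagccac
Cxcl3: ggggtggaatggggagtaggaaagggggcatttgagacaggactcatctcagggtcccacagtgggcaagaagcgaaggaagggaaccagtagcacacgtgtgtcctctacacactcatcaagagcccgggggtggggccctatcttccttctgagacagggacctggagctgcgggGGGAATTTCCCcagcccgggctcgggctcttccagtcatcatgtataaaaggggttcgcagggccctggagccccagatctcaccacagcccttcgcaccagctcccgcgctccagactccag
Il1a: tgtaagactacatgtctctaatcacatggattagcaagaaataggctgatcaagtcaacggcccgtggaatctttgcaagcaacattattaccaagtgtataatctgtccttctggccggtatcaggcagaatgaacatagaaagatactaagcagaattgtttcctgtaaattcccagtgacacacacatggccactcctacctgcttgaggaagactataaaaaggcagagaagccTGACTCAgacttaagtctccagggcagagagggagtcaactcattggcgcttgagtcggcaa
The capitals of Il6 are TGAGTCA, then GGGATTTTCC, and those of Cxcl1 and Cxcl3 are the same run, GGGAATTTCCC. The promoters of Csf2, Il1b, Il12a, Il1f9 and Ccl17 held none of the 3 motifs within these 300 bases. Of 281 genes that rose and had a promoter, 47 held a kappaB match (16.7%), as did 53 of 354 genes that fell (15%) and 11.7% of all 14368 genes tested with a promoter. AP-1 was held by 12.5%, 11.3% and 7.50% of these, and the interferon response motif by 4.63%, 3.67% and 3.64%. Over all 32851 promoters of the same length, 8.46% held kappaB, 7.81% AP-1 and 3.44% the interferon response motif. In the lists, kappaB matches stood in 9 of 15 NF-kB genes, 7 of 17 cytokines, 7 of 19 chemokines, 3 of 17 IL-1 family genes and 5 of 20 interferon-stimulated genes, and the interferon response motif in 11 of those 20. A match is a run of letters and was not tested for binding.

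Chemokine genes divided by kind. Of 28 genes 6 rose and 1 fell, with a median of 0.09. Ligands of the neutrophil receptor CXCR2 made up most rises. Cxcl5 went from 8.22, 8.12, 9.07 and 7.97 to 11.44, 10.82, 11.02 and 11.17 (SE 0.223, adjusted p = 0.000601), and Cxcl3 from 11.37, 11.26, 11.77 and 10.89 to 13.11, 12.75, 12.56 and 12.67 (1.45, adjusted p = 0.0024). Cxcl1 went from 13.46, 13.18, 13.66 and 13.03 to 14.44, 14.27, 14.32 and 14.32 (1.01, adjusted p = 0.0043). Every LPS value of these genes lay above every PBS value. Cxcl2 rose by 0.69, and the DC-derived ligands of CCR4, Ccl17 and Ccl22, rose by 1.02 and 0.84. Cxcl14, a chemokine made constitutively in many tissues, fell by 0.95 (adjusted p = 0.0264). Ccl3 differed by 0.30 (adjusted p = 0.172, 0.093 with the block). Xcl1, a product of NK and T cells, differed by -0.95 and did not pass, but did with the block (adjusted p = 0.157 and 0.046) and without PBS replicate 3 (-1.24, adjusted p = 0.0236). With the block 9 chemokines were higher and 5 lower. Among 18 chemokine receptors, Cxcr3 rose by 0.72, and Cxcr4 (-0.71) and Ccr9 (-0.66) fell, all of which lost the call without at least 1 library (adjusted p at most 0.229). With the block 2 receptors were higher and 3 lower. Ccr2, the receptor that draws monocytes out of marrow, gave 8.19, 8.79, 8.33 and 8.71 in PBS and 7.16, 8.33, 7.51 and 7.97 in LPS. A single LPS value lay within the PBS range, each LPS value was below its paired PBS value, and the difference of -0.76 did not pass without the block and did with it (adjusted p = 0.139 and 0.00761). It also passed without LPS replicate 2 (-0.96, adjusted p = 0.0639), and 2 of the 3 dimmer Ccr2 probe sets were called lower (-1.0 and -0.88).

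Among genes of iron and antimicrobial defence, 5 of 16 on the antioxidant, iron and metal list rose and 1 fell. Lcn2, a protein that binds bacterial iron carriers, measured 10.76, 11.17, 11.71 and 10.44 in PBS and 12.99, 13.17, 13.39 and 13.36 in LPS (2.21, SE 0.229, 4.63-fold, adjusted p = 0.000988). Hamp, described above, was the other large rise of that list. Slc40a1, the iron exporter ferroportin on which hepcidin acts, fell by 0.84 with overlapping groups (adjusted p = 0.077, lost without any of 6 libraries). Slc7a11, the cystine importer, rose by 0.55 (lost without any of 7 libraries), and the metallothioneins Mt2 and Mt1 by 0.55 and 0.53. S100a8, a calcium-binding alarmin of myeloid cells, measured 12.05, 12.36, 13.14 and 12.15 in PBS and 14.07, 13.96, 14.63 and 14.36 in LPS (1.83, SE 0.228, adjusted p = 0.0024). Its usual partner S100a9 gave 10.71, 9.92, 10.88 and 7.25 in PBS and 7.53, 8.60, 8.28 and 9.07 in LPS. The groups overlapped through PBS replicate 4, and the difference of -1.32 (95% interval -2.77 to 0.13) did not pass with or without the block. Without PBS replicate 4 it was -2.13 and passed (adjusted p = 0.0185). Other than S100a8 and Csf3r (0.60), the receptor of G-CSF, none of 10 neutrophil markers rose, and with the block 1 was lower.

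Matrix proteases and inhibitors of proteases rose in 6 of 17 cases and fell in 2 (9 and 3 with the block), with a median of 0.41. Mmp3, described above, was not among these 17. Serpinb2 went from 8.22, 8.85, 9.13 and 7.65 to 11.29, 10.79, 10.63 and 10.93 (SE 0.275, adjusted p = 0.00152). F3, outside this list, went from 8.27, 8.96, 10.09 and 7.74 to 11.59, 11.29, 11.74 and 11.16 (SE 0.391, adjusted p = 0.00607). For both the LPS samples were closer to each other than the PBS samples. The collagenase Mmp13 rose by 1.05, the inhibitor Timp1 by 0.93, Mmp10 by 0.87, the membrane-bound Mmp14 by 0.67 and Mmp9 by 0.45, and Timp2 (-0.73) and Plau, urokinase (-0.48), fell. The calls of Timp1, Mmp10, Mmp9 and Plau were lost without at least 1 library (adjusted p at most 0.197).

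Maturation and costimulation genes were higher in 5 and lower in 2 of 23 cases, with a median of 0.17, and higher in 9 with the block. Slamf1 (CD150), a receptor of lymphocytes and activated myeloid cells, measured 9.67, 10.69, 10.87 and 9.60 in PBS and 12.16, 12.21, 12.56 and 12.17 in LPS (2.07, SE 0.268, 4.19-fold, adjusted p = 0.00304). Cd80, a ligand of CD28, rose by 1.01 from 9.71, 10.38, 10.69 and 10.23 to 11.04, 11.44, 11.40 and 11.16 (adjusted p = 0.0181). Cd86, the other ligand of CD28, was near 14 in all samples and differed by -0.11 (95% interval -0.32 to 0.10). Batf3, a transcription factor of DCs, rose by 0.89. Pdcd1lg2, the ligand PD-L2, rose by 0.76 and Socs2 by 0.46, both calls being lost without at least 1 library. Tnfsf4, the ligand OX40L, fell by 0.85, from 10.53, 10.21, 10.62 and 10.15 to 9.61, 9.51, 9.55 and 9.45 (adjusted p = 0.00658), and Il21r by 0.52.

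Antigen presentation and interferon genes held a single call. Over all genes 1.93% were called higher and 2.46% lower, so lists of this size would hold few calls. Of 18 MHC class II genes only Lgmn, a lysosomal protease that processes antigen, was called, with a fall of 0.71, and the median was -0.13. H2-Ab1, a class II chain, differed by -0.26 (95% interval -0.53 to 0.02). None of 16 MHC class I genes, 27 interferon-stimulated genes, 9 guanylate-binding proteins and related GTPases or 6 interferon regulatory factors was called by limma, and with the block 1 guanylate-binding gene was lower and none of the others passed. At an unadjusted p under 0.05 there were 0, 0, 1 and 2 of them. Their medians were -0.09, -0.10, -0.15 and -0.20. The interferon-stimulated genes were at mean PBS levels of 11.15 to 14.50. Rsad2 measured 14.42 to 14.59 in PBS and 14.39 to 14.53 in LPS, and Oas2, which had the largest difference of the list, differed by -0.22. The highest values on the NOD cultured arrays were 14.85 to 14.92, so Rsad2 had little room to rise. Whether a rise could register at such levels was not tested.

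Of 18 STAT factors, Janus kinases, SOCS inhibitors and Pim kinases, 5 rose (7 with the block) and none fell. Cish, an inhibitor that is induced through STAT5, measured 8.74, 9.41, 9.64 and 8.85 in PBS and 10.36, 10.63, 11.02 and 10.49 in LPS (1.47, SE 0.209, adjusted p = 0.00517). Stat5a, the factor that acts downstream of the GM-CSF receptor, rose from 10.63, 11.35, 10.96 and 10.87 to 11.60, 11.89, 12.04 and 11.69 (0.85, SE 0.159, adjusted p = 0.0184). Neither gene's groups overlapped. The kinase Pim3 rose by 0.74 with overlapping groups, and Socs2 and Socs3 by 0.46 each, with calls that were lost without at least 1 library. Of 21 immediate early transcription factors, Fosl2 rose (0.75) while Fos (-0.91), Klf4 (-0.51) and Jun (-0.49) fell. Egr2 differed by -1.04 and did not pass, but did with the block (adjusted p = 0.114 and 0.00581) and without LPS replicate 1 or PBS replicate 3 (adjusted p = 0.08 and 0.0616). With the block 5 of this list were higher and 6 lower. Of 9 MAP kinase phosphatases, Dusp2 was the single gene called by its brightest probe set (0.51), a dimmer probe set of Dusp7, named after its value was seen, was called too (0.64), and with the block 3 were higher and 1 lower. The calls of Klf4 and Dusp2 were lost without at least 1 library.

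Enzymes of lipid mediators and amino acids were among the called genes. Ptgs2, the inducible cyclooxygenase COX-2, measured 12.38, 13.13, 13.39 and 12.60 in PBS and 13.80, 13.86, 13.94 and 13.81 in LPS (0.98, SE 0.193, 1.97-fold, adjusted p = 0.0238). Pla2g4a, which frees arachidonic acid, rose by 0.60, and Ptges, which makes prostaglandin E2, by 0.61 (lost without any of 7 libraries). Hpgd, which inactivates prostaglandins, fell by 1.07, from 9.34, 8.73, 9.29 and 9.24 to 8.01, 7.86, 8.23 and 8.23 (adjusted p = 0.00505). Thus 3 of 18 genes of this list rose and 1 fell. Arginase Arg2 rose by 1.42 (adjusted p = 0.00876), Ido1, which degrades tryptophan, by 0.97 (adjusted p = 0.00517), Nos2, inducible nitric oxide synthase, by 0.88, and the arginine carrier Slc7a2 by 0.47 (lost without any of 7 libraries), which made 4 of 14 genes higher and none lower (5 and 1 with the block). Aldh1a2, the enzyme that lets DCs make retinoic acid, measured 8.57, 9.0, 9.11 and 8.10 in PBS and 10.51, 10.79, 10.37 and 10.15 in LPS (1.76, SE 0.214, 3.39-fold, adjusted p = 0.00223). It was the largest of 3 rises among 19 genes of retinoic acid, TGF-beta and tolerance, of which 6 were higher and 4 lower with the block. Itgb8, an integrin chain that activates TGF-beta, rose by 0.74 with overlapping groups, and Havcr2 (TIM-3, -1.17), Ccr9 and Tgfbr2 (-0.49) fell. The calls of Itgb8 and Tgfbr2 were lost without at least 1 library. Cd24a differed by 1.03, with LPS replicate 1 at 12.61 and the other LPS samples at 10.56 to 10.75, and did not pass, but did with the block (adjusted p = 0.304 and 0.0201). Without LPS replicate 1 its difference was 0.55.

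Of 8 TREM receptors and adaptors 1 rose and 2 fell, and the other 5 did not pass (1 rose and 3 fell with the block). Trem1, which amplifies inflammatory signalling, measured 7.56, 8.38, 8.33 and 7.74 in PBS and 8.65, 9.28, 9.50 and 9.60 in LPS (1.25, SE 0.235, 2.38-fold, adjusted p = 0.019). Trem2, a receptor for lipids on macrophages, measured 10.18, 9.80, 9.66 and 10.37 in PBS and 8.98, 8.58, 9.03 and 8.93 in LPS (-1.12, SE 0.166, 2.18-fold lower, adjusted p = 0.00658). The groups were separate in both genes, but the other probe set of Trem2 differed by -0.02. Tyrobp (DAP12), the adaptor through which both signal, fell by 0.41 (adjusted p = 0.0697, lost without any of 7 libraries). Of 8 Fc receptors, Fcgr2b, the inhibitory receptor for IgG, rose by 1.73 and the activating Fcgr3 by 0.55 (lost without any of 6 libraries). None of the 8 fell, and with the block 1 was lower.

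**Figure D3:**
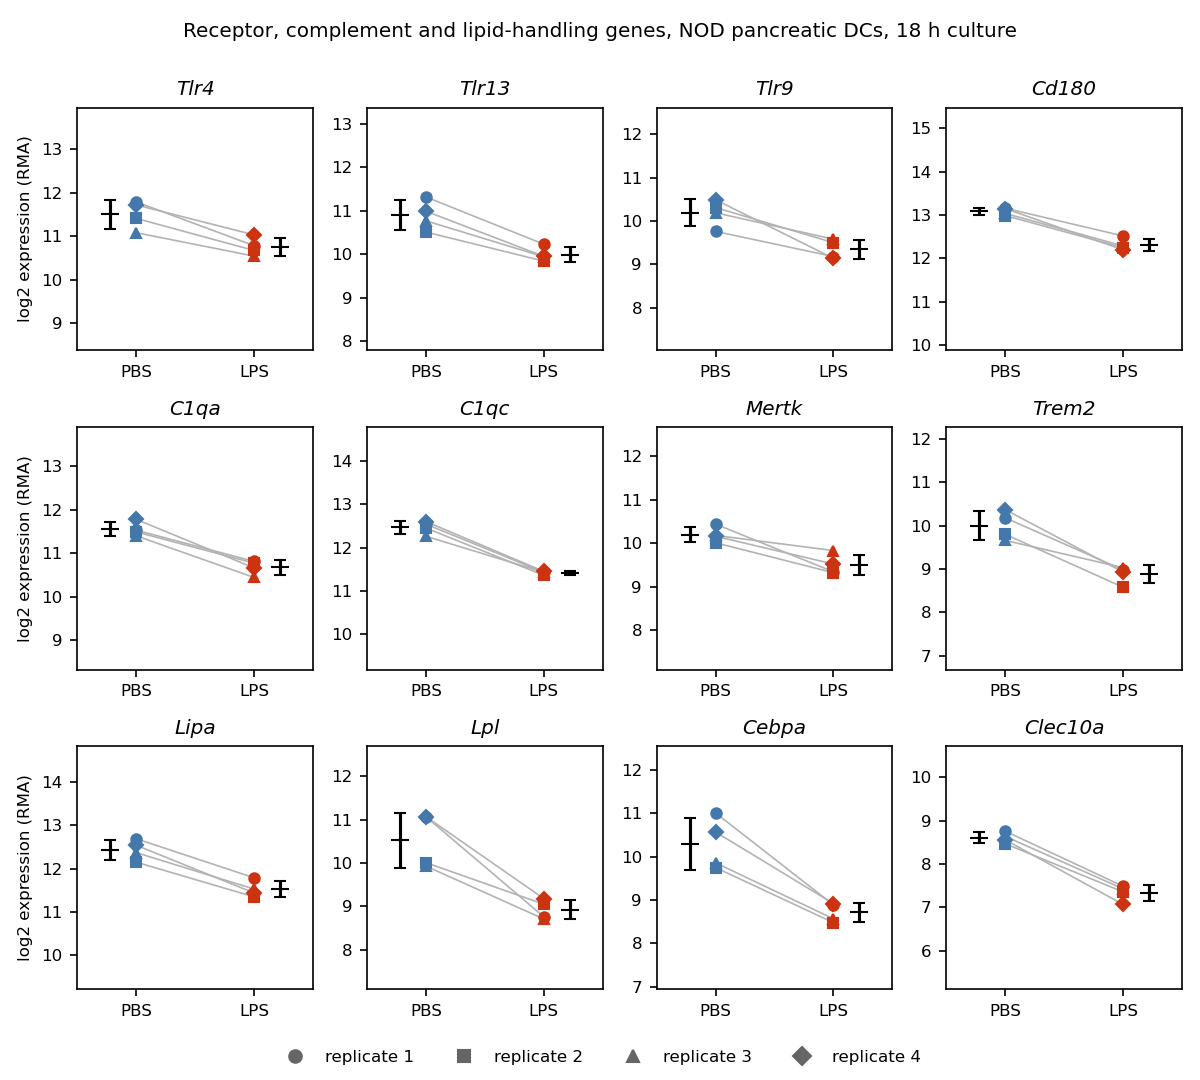
Log2 expression of 12 receptor, complement and lipid-handling genes in NOD DCs cultured for 18 h with PBS (blue) or LPS (red); symbols mark replicates 1 to 4, grey lines join samples of the same number, bars give mean and SD, and all panels span the same range of log2 units. All LPS values lay below all PBS values of their gene, by the narrowest margin for Tlr4.

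Of 15 complement genes 6 fell and none rose. C1qc, a chain of the recognition molecule C1q, measured 12.54, 12.45, 12.26 and 12.60 in PBS and 11.43, 11.36, 11.43 and 11.45 in LPS (-1.04, SE 0.105, 2.06-fold lower, adjusted p = 0.000922). C1qa fell by 0.88, from 11.53, 11.49, 11.40 and 11.78 to 10.81, 10.77, 10.44 and 10.66 (adjusted p = 0.00456). The LPS samples were nearly equal for C1qc and below all PBS samples for both. Itgax (CD11c, -0.58), Cd59a (-0.48), C3ar1 (-0.44) and C1qb (-0.42) fell with calls that were lost without at least 1 library (adjusted p at most 0.216). Among 29 lysosomal and phagocytic genes 1 rose and 4 fell, with a median of -0.23, and with the block 3 rose and 10 fell. Lipa, the lysosomal acid lipase, fell by 0.91, the lipid scavenger receptor Cd36 by 0.81 and Mertk, a receptor for dying cells, by 0.70, while Mrc1, the mannose receptor, rose by 0.63. The liver X receptor Nr1h3, which senses sterols, fell by 0.54 (lost without at least 1 library), and was the single called gene of 18 of the cholesterol list (1 higher and 2 lower with the block).

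Cell type markers gave the following values beside these falls. Of 19 macrophage markers 8 fell and 1 rose (9 and 2 with the block, median -0.33), and the mean level over the 19 was 11.06 to 11.30 in PBS samples and 10.80 to 10.86 in LPS samples. The 8 were Trem2, Cd5l (-1.08), C1qc, C1qa, Mertk, Timd4 (-0.62), Csf1r, the receptor for the macrophage growth factor (-0.57), and C1qb. Timd4 and Csf1r lost the call without at least 1 library. Of 14 DC markers 4 fell and none rose: Clec10a, a lectin of CD8α- DCs (-1.27), Cd4 (-0.69), Itgax and Dpp4 (-0.51). Of 11 markers of CD8α+ or CD103+ DCs, Cadm1 fell (-1.39), and Batf3 and Ly75 (0.46, lost without any of 6 libraries) rose. Of 9 plasmacytoid DC markers 3 fell, Siglech (-1.09), Pacsin1 (-0.71) and Ccr9, and the mean level was 10.14 to 10.53 in PBS and 9.81 to 10.12 in LPS. None of 6 monocyte, 14 NK cell, 8 T cell, 9 B cell and 18 pancreatic markers was called by limma, with medians of -0.32, -0.18, 0.02, 0.38 and 0.06, and 2, 1, 2, 1 and 0 of them had an unadjusted p under 0.05. With the block 4 NK cell markers were lower, among them Klrk1 (-0.72; -0.90 and past the threshold without LPS replicate 2) and Gzmb (-0.54), 2 B cell markers were higher, 1 T cell marker, Thy1 (0.77, and 1.06 and past the threshold without LPS replicate 1), was higher and 1 lower, and 1 monocyte marker was lower. Hdc, a mast cell marker that myeloid cells also induce, rose by 0.70, and Kdr, a receptor of endothelium, fell by 1.09. The part of other cells in the falls was not tested.

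Calls in the metabolic and cell cycle lists stand beside 1.93% of all genes called higher and 2.46% called lower. Pfkfb3, an activator of glycolysis, was the single called gene of 19 (0.39, lost without any of 6 libraries), while 7 of them were higher with the block, among them Pfkl (0.79, and 1.10 and past the threshold without PBS replicate 3) and Ldha (0.47). With the block 1 of the 19 was lower. Of 48 genes of S phase and mitosis 2 rose and 1 fell (6 and 2 with the block), with a median of 0.22. Mki67, the proliferation marker Ki-67, measured 11.01, 10.73, 11.29 and 10.44 in PBS and 12.66, 12.01, 12.05 and 12.12 in LPS (1.34, SE 0.194, 2.54-fold, adjusted p = 0.00578), and Cks2, a partner of cyclin-dependent kinases, rose by 1.14 (adjusted p = 0.0279). Ccnd1, cyclin D1, fell by 1.03. In several other genes of the list LPS replicate 1 stood apart. Rrm2, a subunit of ribonucleotide reductase, was 10.14 in that sample and 7.24 to 7.49 in the other LPS samples (1.89, adjusted p = 0.109, 0.0263 with the block), and Top2a was 9.04 there and 7.30 to 7.92 in the others (0.78, adjusted p = 0.296). Without LPS replicate 1 the difference of Rrm2 was 1.19 and passed (adjusted p = 0.00724), that of Top2a was 0.41, and Mki67 remained past the threshold. Gadd45a, a stress-induced growth regulator, rose by 1.31 and was the single gene of 19 of cell death and survival called by its brightest probe set. Of the same list, Gadd45b, named after its values were seen, had 2 dimmer probe sets called higher (0.53 and 0.44), and its brightest differed by 0.38 and passed with the block. None of 7 Reg genes, which encode proteins of the regenerating pancreas, was called by limma with or without the block, and 0 had an unadjusted p under 0.05. Reg1 gave 8.34, 9.57, 8.65 and 10.88 in PBS and 8.95, 8.77, 10.01 and 9.32 in LPS, a difference of -0.10 (95% interval -1.13 to 0.93).

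The response of C57BL/6 DCs, with 4 PBS and 3 LPS samples of its own, served as the comparison for the NOD response. Of the 352 genes that rose in NOD, 334 had a positive LPS difference in C57BL/6 (94.9%, against 55.6% of all genes), and of the 448 that fell 422 had a negative one (94.2%, against 44.4%). These genes were chosen on their NOD values, so the sizes of the differences cannot be set against each other over the whole group. Tested directly, the LPS difference of NOD minus that of C57BL/6 passed for 11 of 45037 probe sets (0.0244%), 8 with a positive and 3 with a negative value. They named 5 genes, and 1 probe set had no gene name here.

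**Figure D4:**
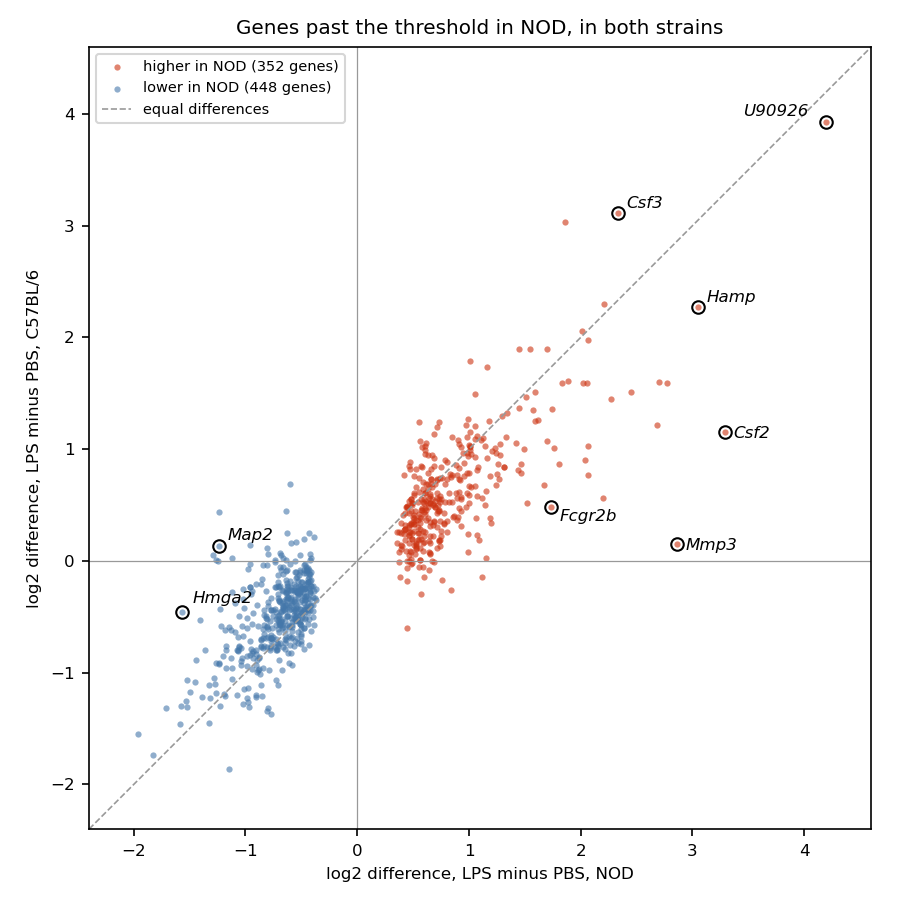
Log2 difference between LPS and PBS in NOD (x axis) and in C57BL/6 (y axis) for the 800 genes past the threshold in NOD, red where higher and blue where lower in NOD; the dashed line marks equal differences and circled genes are labelled. The genes were chosen on the x axis, and 334 of 352 red and 422 of 448 blue points had the same sign on the y axis.

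Mmp3 differed most clearly. In NOD it measured 6.94, 6.40, 7.95 and 7.04 in PBS and 9.70, 9.65, 10.29 and 10.11 in LPS, and in C57BL/6 it measured 6.64, 6.64, 6.55 and 6.31 in PBS and 6.79, 6.68 and 6.60 in LPS. The C57BL/6 values stayed near the lower quartile of the arrays in both groups. The LPS difference was larger in NOD by 2.70 (95% interval 1.96 to 3.44, adjusted p = 0.0104, 0.00898 with the block), and it passed under each of the 20 alternatives run.

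Fcgr2b was named by 4 of the 11 probe sets, and its brightest gave 11.32, 11.09, 11.67 and 11 in NOD PBS, 13.10, 12.68, 13.15 and 13.08 in NOD LPS, 12.49, 12.41, 12.66 and 12.59 in C57BL/6 PBS and 12.95, 13.03 and 13.05 in C57BL/6 LPS. The strains were thus apart in PBS and level with LPS. In uncultured NOD DCs the mean level of the brightest probe set was 13.05. The other called Fcgr2b probe sets had uncultured NOD means of 12.32, 12.34 and 12.8. Each mean lay within the range of its NOD LPS values and above all its NOD PBS values. The NOD rise is thus one over PBS culture, and a difference from uncultured cells was not tested. Differences between LPS and PBS were 1.73 to 2.03 in NOD and 0.45 to 0.57 in C57BL/6 over these 4 probe sets. The other of the 5 Fcgr2b probe sets differed by 0.14 in NOD and was not called. The interaction of the brightest was 1.26 (adjusted p = 0.0657) and lost its call under 14 of 21 alternatives, while that of the probe set with the smallest p, 1.30 (adjusted p = 0.0104), passed under all 21.

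Map2, a microtubule-associated protein, fell in NOD from 8.72, 8.98, 9.02 and 9.28 to 7.64, 7.76, 7.78 and 7.85, and measured 7.38, 7.36, 6.89 and 6.81 in C57BL/6 PBS and 7.28, 7.28 and 7.14 in C57BL/6 LPS. With LPS the NOD samples came closer to the C57BL/6 level. The interaction was -1.37 (95% interval -1.81 to -0.92, adjusted p = 0.0442) and was negative in all 3 called probe sets. It lost the call without C57BL/6 LPS replicate 2, 3 or 4, C57BL/6 PBS replicate 3, NOD LPS replicate 2 or NOD PBS replicate 4 (adjusted p at most 0.205). Epha4, an ephrin receptor, rose in NOD by 1.55 and differed by -0.10 in C57BL/6 for 1 of its 5 probe sets (interaction 1.65, adjusted p = 0.0104). That probe set was at 5.94 in NOD PBS, below the lower quartile of the arrays.

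Gbp2b was the reverse case. In NOD it measured 11.34, 11.15, 11.22 and 10.85 in PBS and 11.04, 11.18, 11 and 11.01 in LPS, a difference of -0.08 (95% interval -0.35 to 0.19), while in C57BL/6 it went from 9.71, 9.12, 9.64 and 9.28 to 7.94, 7.59 and 7.92 (-1.62, 95% interval -2.01 to -1.23). The interaction of 1.54 (adjusted p = 0.0149) did not pass with the block (adjusted p = 0.117). Gbp2b encodes a guanylate-binding protein induced by interferon.

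**Figure D5:**
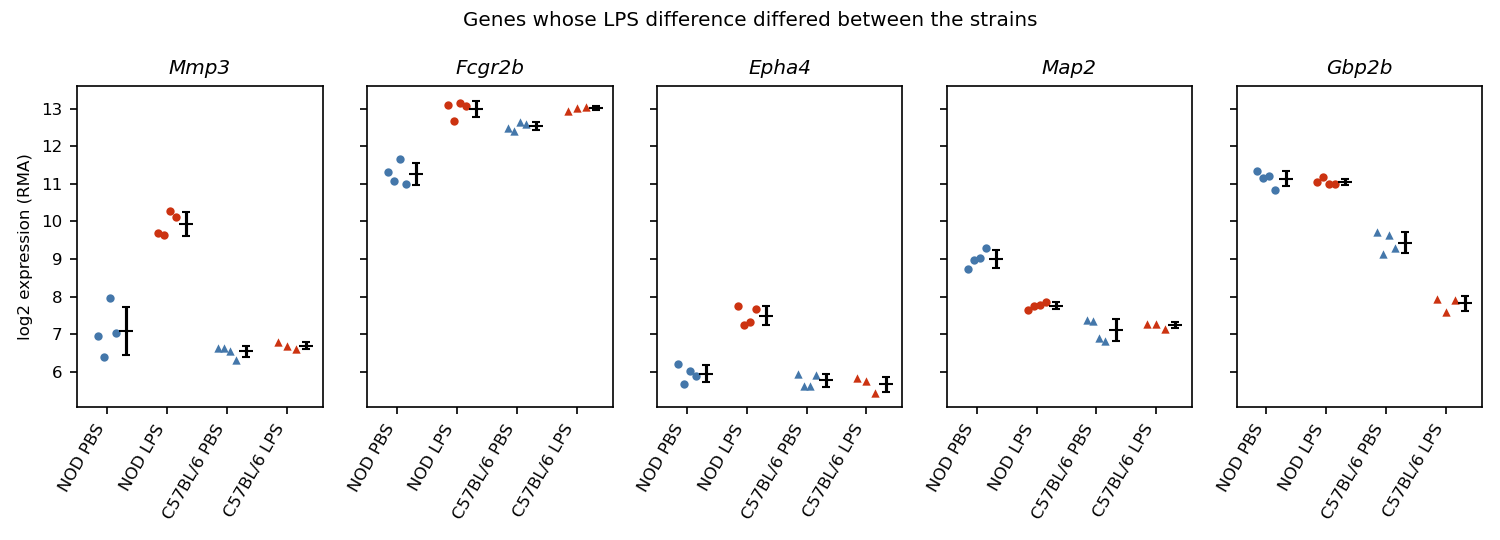
Log2 expression of 5 genes whose LPS difference differed between the strains, for NOD (circles, 4 PBS and 4 LPS samples) and C57BL/6 (triangles, 4 PBS and 3 LPS samples), with PBS in blue, LPS in red and bars at mean and SD. Mmp3 and Epha4 rose in NOD and differed by 0.15 and -0.10 in C57BL/6, Fcgr2b rose to the C57BL/6 level, Map2 fell in NOD and Gbp2b stayed at 10.85 to 11.34 in NOD.

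The cytokines with the largest NOD rises were not called in this test. Csf2 rose by 3.29 in NOD and differed by 1.15 in C57BL/6 (95% interval 0.49 to 1.81), a gap of 2.14 (0.94 to 3.34, adjusted p = 0.818). For Il1f6 the gap was 1.10 (0.06 to 2.15), for Il10 0.47 (-0.12 to 1.07), for Il6 0.34 (-0.37 to 1.05) and for Tnf 0.07 (-0.32 to 0.46). Csf3 (-0.79, -1.86 to 0.28), Il12a (-0.35, -0.99 to 0.28) and Il1b (-0.20, -0.80 to 0.40) had gaps of the other sign, and all of these had an adjusted p of 1.00. The intervals do not show that the strains responded alike.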

How the data were processed

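Expression was measured on Affymetrix Mouse Genome 430 2.0 arrays, 1 array per sample, and the series holds 22. The deposited table holds log2 values that the authors made from the scanner files by RMA, which corrects background, applies quantile normalization over arrays and summarises each probe set. RMA ties the distributions of the arrays to each other, so a shift shared by all genes would not be seen. Arrays carry no read depth, and the precision is limited by their number, 4 per NOD group. All columns of values belonged to a sample of the series (0 without one), and groups and replicate numbers were taken from the labels.

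The table lists 45101 probe sets, and the 64 AFFX controls among them were removed. Of the remaining 45037, 34945 named 1 gene, 932 named several and 9160 had no name here. A gene was given by the probe set that names it alone with the highest mean over the 22 arrays, which gave 18193 genes. LPS was compared with PBS by limma 3.58.1 in R 4.3.3 on the 8 NOD arrays, with Benjamini-Hochberg adjustment over 45037 probe sets and a threshold of 0.1. The strain comparison was the interaction in a fit of the 15 cultured arrays. The study's methods name a multivariate permutation test in BRB-ArrayTools, which was not run here, and limma stands in its place. The fit was tested on simulated data.

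Residuals of LPS and PBS arrays with the same number correlated at 0.241 to 0.487, each array best with its own number. The main fit did not use the numbers, and calls, adjusted p and lost calls are those of that fit unless the block is named. In fits with the replicate number as a block the numbers were treated as pairs. These fits are given where they change the call of a named gene. List counts with the block are given where they moved by over 1.5 times or as further values. For the arrays, the sources used here do not say what a number marks, nor that cultured samples of a group came from separate pools. The p-values then measure the spread between these samples, which may be technical.

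Named genes are those the study names for its LPS arrays, the 10 largest rises and falls whose groups do not overlap, up to 4 called members of each list with the largest changes, the largest interactions, and further members that show how a list varies. The comparison, the 42 gene lists and these genes were chosen with earlier results of these data known. The lists held 722 symbols, of which 647 matched a gene with a probe set of its own, and the others were not analysed here. Promoter sequences are those of RefSeq on GRCm38.p6. As alternatives, the threshold was set to 0.05, the dimmer 50% of probe sets were removed, the 22 arrays were fitted together, each array was centred on its median, arrays were weighted by quality, the spread was estimated robustly along intensity, probe sets of a gene were averaged, the block was added, and each array was left out.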

Additional observations from a re-analysis of the deposited data

Results flagged for a closer look

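In groups of 4 samples, the gap between an extreme sample and its nearest neighbour was divided by the range of the group. This exceeded Dixon's 95% critical value in 9 of 224 groups, and chance gives about 5% of groups. The sample was the highest of its group for Slamf1 (LPS replicate 3, 0.877), Cd59a (PBS replicate 2, 0.839), U90926 (PBS replicate 3, 0.838), Mki67 (LPS replicate 1, 0.836), Cks2 (PBS replicate 3, 0.831) and Hmga2 (LPS replicate 3, 0.83). It was the lowest for Fcgr2b (LPS replicate 2, 0.846), Pim3 (LPS replicate 2, 0.844) and Hpgd (PBS replicate 2, 0.83).

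The LPS difference of NOD minus that of C57BL/6 passed the interaction test of limma for 11 probe sets, while 1759 had an unadjusted p under 0.05. Positive log2 values were those of Mmp3 (2.70), Epha4 (1.65), Gbp2b (1.54), a probe set without a gene name here (1.47), and 4 probe sets of Fcgr2b (1.55, 1.45, 1.30 and 1.26). The 3 negative values, -1.37, -2.55 and -1.85, were all of Map2. With the block, the adjusted p of Map2 was 0.0438, 0.1 and 0.221 in the same order, that of Gbp2b 0.117 and that of the unnamed probe set 0.189.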

How the results depend on the processing

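The 1693 NOD calls (758 higher and 935 lower) became 2676 (1188 and 1488) in 1 fit of all arrays, 4282 (1934 and 2348) with the replicate block, and 1013 (469 and 544) at an adjusted p under 0.05. The 11 interaction calls became 20 in 1 fit of all arrays, 18 with the block and 6 without the dimmer probe sets. With 1 array left out, NOD calls ranged from 911 to 1672, those higher from 450 to 854, those lower from 461 to 882, and interaction calls from 5 to 14. The lowest were without PBS replicate 4 in NOD and without C57BL/6 LPS replicate 3 in the interaction. Of 137 called genes that are named, 94 kept direction and call under every alternative run. Cd5l, Cxcl2 and Mt2 lost it in 1 fit of all arrays alone, and Il1r1 as the mean over its probe sets alone. With the block, 15 named genes without a call passed, and it changed no other call among named genes. Values turned sign for genes without a call: Il12b ranged from -0.02 (without LPS replicate 2) to 0.21, and Reg1 from -0.44 to 0.41, with 0.01 without LPS replicate 1, 0.07 without LPS replicate 2 and 0.41 without PBS replicate 4. The cause was not tested. Probe sets near the lower quartile of the arrays (6.28 to 6.36) carry no test against background here.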
